A study of Mus musculus with 2 samples.

Results

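The Rab GTPases of mouse melanoma cells are described here as a family: every row of the deposited table of UMI counts whose symbol is Rab followed by a number and at most a letter and a digit. The pattern matched 54 symbols. Rab27a, Rab32 and Rab38 were left out, so that 51 of the 14959 genes in the table are members. Messenger RNA was read in single cells in droplets, at its 3′ end, and each original molecule was counted once through its unique molecular identifier (UMI). B16F10 is labelled a subclone of the B16 melanoma with high metastatic capacity, and B16F0 is labelled the parental line. Neither line carried a further treatment or genetic change in the labels, and both are cultured tumour cells, without the stroma or immune cells of a tumour. Only 1 library was made of each line, so differences cannot be set against a spread between replicates, no test is made, and intervals cover counting error only.

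Rab proteins are small GTPases that act as membrane switches. Exchange factors load them with GTP on the membrane of 1 compartment, where they recruit effectors that move, tether or fuse vesicles, and activating proteins return them to the GDP form, which chaperones carry through the cytosol. In pigment cells, Rab proteins sort melanin enzymes to maturing melanosomes and carry melanosomes along the cytoskeleton, beside the housekeeping traffic between the endoplasmic reticulum, the Golgi, endosomes and the cell surface that all cells share.

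The promoters of 3 members are shown because these 3, Rab29, Rab8b and Rab23, differed by 1.5-fold or more between the lines among members that reached 5 CPM in the higher line (UMI counts of a gene per 1000000 UMIs of all genes). The windows run from 250 bases before to 50 bases after the RefSeq start site on GRCm38.p6, 5′ to 3′ along the gene. Rab29 lies at chr1:131867027-131867326 on the plus strand, Rab8b at chr9:66919656-66919955 on the minus strand and Rab23 at chr1:33719646-33719945 on the plus strand. Capitals mark copies on either strand of ACTACA followed after 2 bases by TCCC (the ZNF143 type of promoter element), CACGTG (an E-box) and GGGCGG (a GC box).
Rab29: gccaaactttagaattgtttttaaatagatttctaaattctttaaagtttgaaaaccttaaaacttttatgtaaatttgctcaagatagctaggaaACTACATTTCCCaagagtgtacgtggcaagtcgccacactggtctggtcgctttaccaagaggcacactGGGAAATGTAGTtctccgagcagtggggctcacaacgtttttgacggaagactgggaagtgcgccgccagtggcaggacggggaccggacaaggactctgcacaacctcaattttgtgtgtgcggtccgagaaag
Rab8b: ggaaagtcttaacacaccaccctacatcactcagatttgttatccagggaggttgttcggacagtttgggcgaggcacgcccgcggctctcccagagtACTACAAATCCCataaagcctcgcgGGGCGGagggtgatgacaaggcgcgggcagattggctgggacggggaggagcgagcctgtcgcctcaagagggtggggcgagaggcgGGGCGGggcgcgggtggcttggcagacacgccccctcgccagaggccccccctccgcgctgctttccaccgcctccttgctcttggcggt
Rab23: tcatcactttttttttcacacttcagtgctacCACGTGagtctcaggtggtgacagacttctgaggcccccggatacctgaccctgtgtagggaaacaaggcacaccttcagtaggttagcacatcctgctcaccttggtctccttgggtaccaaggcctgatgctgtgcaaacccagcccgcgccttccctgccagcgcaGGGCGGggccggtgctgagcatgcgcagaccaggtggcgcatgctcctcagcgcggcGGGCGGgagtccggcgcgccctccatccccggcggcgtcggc
The Rab29 window held a pair of copies of the ZNF143 type element, 1 on each strand, first bases at -154 and -85 from the start site. The Rab8b window held 1 copy at -152 and GC boxes at -127 and -40, and the Rab23 window held an E-box at -218 and GC boxes at -49 and 8. Of 27025 mouse genes with such a window, 2.08% held the ZNF143 type element, 8.09% held CACGTG and 38.2% held GGGCGG. Of the 42 members with a window, this element stood in 3 (Rab5c, Rab8b and Rab29), CACGTG in 5 and GGGCGG in 32. The core of the M-box of pigment genes, CATGTG, stood in 5 members and in 15.9% of all genes, and the cyclic AMP element TGACGTCA stood in 2 members and 2.03% of all genes. Rab29 was among the members without a GC box, and its window held 45.3% G and C, against a median of 63.1% over the 42 members and 52.7% over all genes. The ZNF143 type element was searched for after the Rab29 window had been read, and the others were fixed for the family. A match is a description of the letters and not a shown binding site.

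The B16F10 library held 1574 cells and 56748682 UMIs, and the B16F0 library 2582 cells and 94268486 UMIs, with medians of 34950.5 UMIs per cell in B16F10 and 35503.5 in B16F0. The mitochondrial share of UMIs was 6.78% in B16F10 and 5.41% in B16F0. All 10 melanocyte markers were measured, at a summed 8132 CPM in B16F10 and 8152 CPM in B16F0. Single markers differed under these sums. At least 1.5-fold higher in B16F10 were 3, beside 10.6% of all genes at 20 CPM or more, and 3 were lower, beside 6.12%. Markers of other cell types were low: the 3 measured fibroblast markers of 6 listed summed to 3.82 CPM in B16F10 and 3.99 CPM in B16F0 (mostly Col1a1 in B16F10, at 2.45 CPM, and Col1a2 in B16F0, at 3.59 CPM), the 3 leukocyte markers of 7 to 3.93 CPM in B16F10 and 6.43 CPM in B16F0, the 3 epithelial markers of 6 to 0.035 CPM in B16F10 and 0.55 CPM in B16F0, and the 2 endothelial markers of 5 to 2.19 CPM in B16F10 and 0.59 CPM in B16F0. Of these, Cd14, Krt8 and Epcam were at 0 in B16F10. The libraries shared 6 cell barcodes. A UMI stands for a molecule counted at its 3′ end, so CPM values were compared between genes without division by length.

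Together the Rab transcripts took a nearly equal share of both libraries. Their sum was 2356 CPM (95% Poisson interval 2343 to 2368) in B16F10 and 2234 CPM (2225 to 2244) in B16F0, a log2 ratio of 0.08 (0.07 to 0.09) that turned to -0.02 with TMM factors and -0.03 with DESeq2 size factors. Every member had at least 1 UMI in each line. At least 1 CPM was reached by 40 members in B16F10 and 40 in B16F0, at least 20 CPM by 23 in B16F10 and 24 in B16F0, and at least 100 CPM by 10 in B16F10 and 9 in B16F0. A count of 3, the limit that a count of 0 allows, corresponds to 0.0529 CPM in B16F10 and 0.0318 CPM in B16F0, and 3 members stood at or under it in B16F10 and 0 in B16F0.

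**Figure D1:**
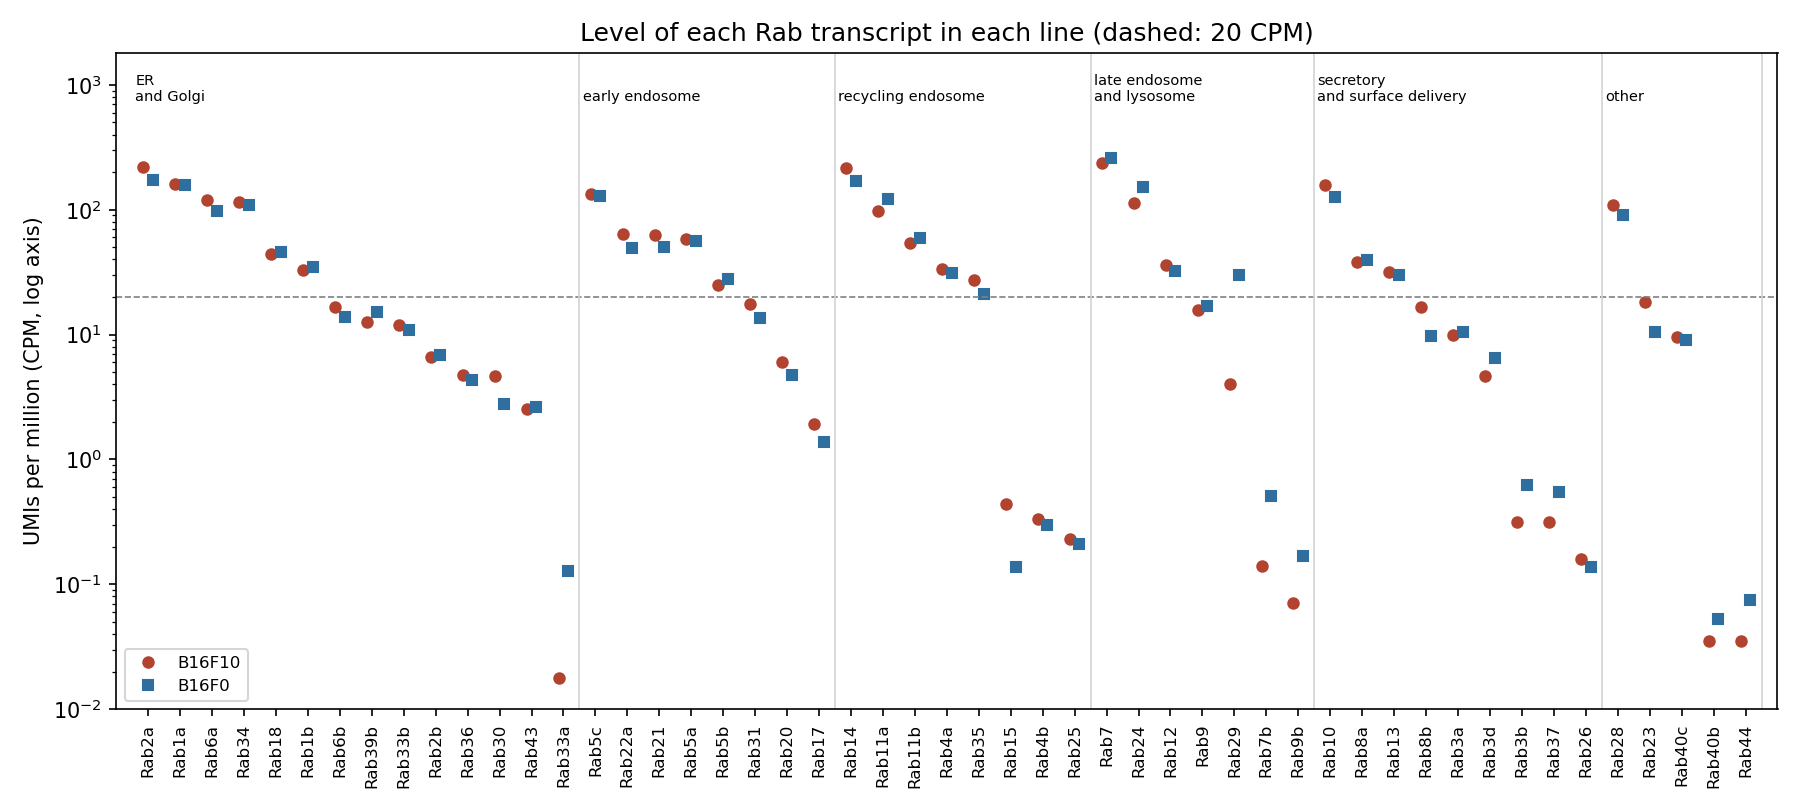
Level of each of the 51 Rab transcripts in CPM on a log axis, with circles for B16F10, squares for B16F0, genes grouped by role and ordered by their B16F10 level, and a dashed line at 20 CPM. The paired points lie close together for most genes above the line, and Rab29 stands apart at 4.02 CPM in B16F10 and 30.3 CPM in B16F0.

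The 6 most abundant members in B16F10 cover the main routes of membrane traffic. Rab7, which drives the fusion of late endosomes with lysosomes, stood at 236 CPM in B16F10 and 258 CPM in B16F0. Rab2a, which works between the endoplasmic reticulum and the Golgi, stood at 221 CPM in B16F10 and 172 CPM in B16F0. Rab14, which connects endosomes with the Golgi and the surface, stood at 216 CPM in B16F10 and 169 CPM in B16F0. Rab1a, which governs transport out of the endoplasmic reticulum, stood at 162 CPM in B16F10 and 157 CPM in B16F0. Rab10, which delivers vesicles to the plasma membrane, stood at 158 CPM in B16F10 and 126 CPM in B16F0. Rab5c, an early endosome Rab that drives endosome fusion, stood at 134 CPM in B16F10 and 129 CPM in B16F0. Rab7, Rab2a, Rab14 and Rab1a led in this order in both lines, and in B16F0 Rab24 came next, above Rab5c and Rab10.

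Between the lines, 1 of the 24 members that reached 20 CPM in the higher line passed 1.5-fold, and it was lower in B16F10. Over all 5296 genes at this level, 10.6% passed 1.5-fold upward in B16F10 and 6.12% downward. The member is Rab29, a Rab of the trans-Golgi and lysosomes that can recruit the kinase Lrrk2 to membranes, and it also passed 2-fold, where 1.60% of all genes did in that direction. The other 23 lay between -0.41 and 0.38 on the log2 scale. The median log2 ratio was 0.06 over the 24 members and 0.12 over all genes at this level. Above 0 stood 15 members, 13 of them with intervals clear of 0, and below 0 stood 9, 7 of them with intervals clear of 0. Of all 5296 genes, 3250 stood above 0, 2928 of them with intervals clear of 0. Below 0 stood 2046 genes, 1752 of them with intervals clear of 0. Scaling by TMM factors shifted the median of all genes to 0.01 and left 10 members above and 14 below 0. The sign of 6 members, Rab1a, Rab4a, Rab5a, Rab5c, Rab13 and Rab34, changed with the scaling.

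**Figure D2:**
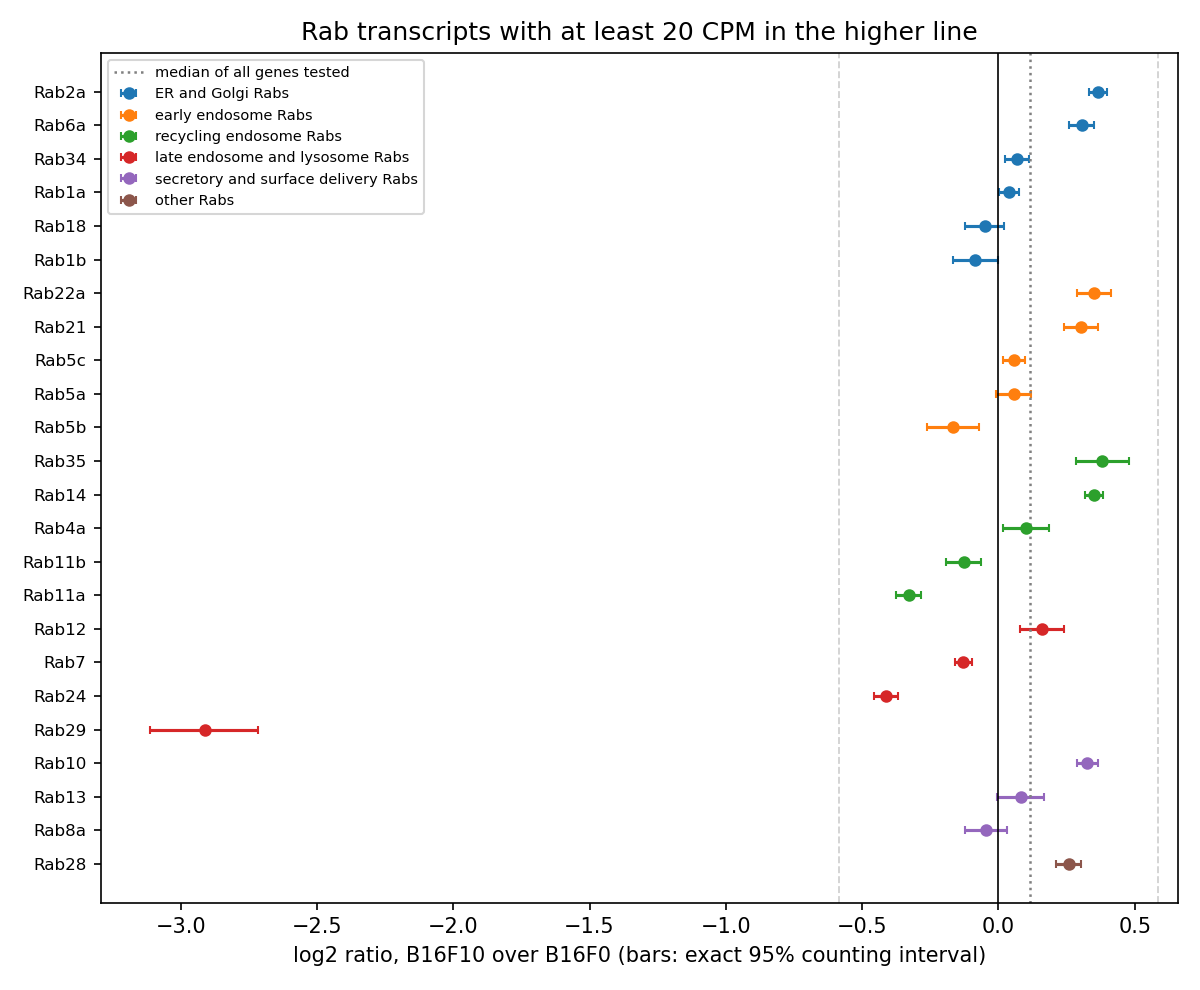
Log2 ratio of B16F10 over B16F0 for the 24 Rab transcripts with at least 20 CPM in the higher line, coloured by role, with exact 95% counting intervals, dashed lines at 1.5-fold and a dotted line at the median of all genes. Rab29 lies at -2.91, outside the band from -0.41 to 0.38 that holds the other 23.

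Rab29 gave 228 UMIs in B16F10, a level of 4.02 CPM (95% Poisson interval 3.51 to 4.57), and 2852 UMIs in B16F0, a level of 30.3 CPM (29.2 to 31.4). The log2 ratio was -2.91 (-3.11 to -2.72), a 7.53-fold lower level in B16F10, and it was the 6th lowest ratio of the 5296 genes. In B16F10, 1365 cells held no Rab29 UMI, 191 held 1, 17 held 2 and 1 held 3. In B16F0, 1021 cells held none, 792 held 1, 453 held 2, 182 held 3 and 134 held 4 or more, with a highest count of 9. After each cell was thinned to 23173 UMIs, Rab29 was detected in 9.25% (exact binomial interval 7.79 to 10.9) of 1416 B16F10 cells and in 48.3% (46.2 to 50.4) of 2194 B16F0 cells. Without thinning, the shares were 13.3% in B16F10 and 60.5% in B16F0. Neither library holds a cell type that should lack Rab29, so the part of free RNA in these shares was not tested.

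The low Rab29 level of B16F10 appeared in each class of the authors' table that holds at least 50 cells in both lines, namely the cycling and non-cycling cells, clusters C3 and C4 and trajectory states 1 and 7. Among cycling cells, Rab29 stood at 3.77 CPM in B16F10 and 28.2 CPM in B16F0, a log2 ratio of -2.90 (-3.14 to -2.67). Among non-cycling cells it stood at 5.02 CPM in B16F10 and 32.9 CPM in B16F0, a log2 ratio of -2.71 (-3.13 to -2.33). In cluster C3, which holds mainly non-cycling cells of both lines, the levels were 4.71 CPM in B16F10 and 28.9 CPM in B16F0. In cluster C4, which holds cycling cells, they were 2.66 CPM in B16F10 and 23.7 CPM in B16F0. The ranges over clusters and states did not meet: clusters and states of B16F10 with at least 50 cells ran between 2.66 and 4.96 CPM, and those of B16F0 between 22.5 and 36.0 CPM.

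A coarser clustering by the authors, looked at after the values above were seen, with classes named F0 and F10, places some cells with the other line. The 121 B16F0 cells in class F10 held Rab29 at 25.2 CPM, against 4.08 CPM in the 1531 B16F10 cells of that class, a log2 ratio of B16F10 over B16F0 of -2.63 (-2.96 to -2.28). The 43 B16F10 cells in class F0 gave 2 Rab29 UMIs, a level of 1.47 CPM, against 30.5 CPM in the 2461 B16F0 cells there, a log2 ratio of -4.37 (-7.42 to -2.52). In both classes the levels lay with those of the labelled line.

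**Figure D3:**
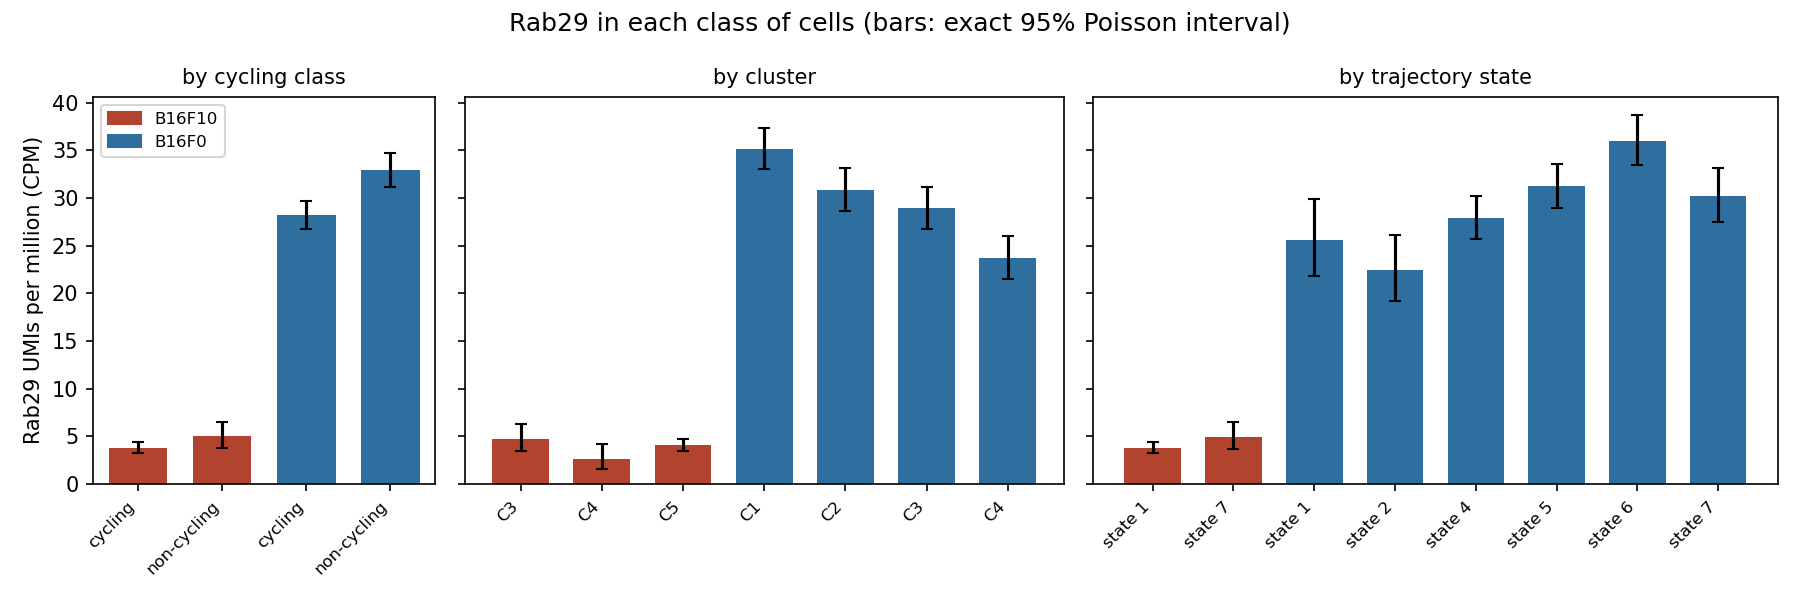
Rab29 level in CPM in each cycling class, cluster and trajectory state with at least 50 cells, with B16F10 classes before B16F0 classes and exact 95% Poisson intervals. Every B16F10 bar ends at or below 5.02 CPM and every B16F0 bar at or above 22.5 CPM.

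Rab29 lies on chromosome 1 at 131867224 to 131872887 on the plus strand of GRCm38 (GENCODE M21). Windows of 98 bases were taken from the last 500 bases of each member transcript, and none of those of Rab29 occurred in another gene. Of the 5 measured genes on either side, which were chosen after the Rab29 values were seen, 1 was lower in B16F10 with an interval clear of 0: Rab7b, a Rab of transport between endosomes and the Golgi, with 0.14 CPM in B16F10 and 0.51 CPM in B16F0, on 8 and 48 UMIs. The nearest gene after Rab29, Nucks1, which encodes a chromatin protein, stood at 583 CPM in B16F10 and 381 CPM in B16F0, a log2 ratio of 0.61 (0.59 to 0.64). The nearest before it, Slc41a1, a magnesium transporter, stood at 10.4 CPM in B16F10 and 7.69 CPM in B16F0, a log2 ratio of 0.44 (0.28 to 0.60). Lrrk2 itself stood at 3.12 CPM in B16F10 and 3.64 CPM in B16F0, a log2 ratio of -0.22 with an interval from -0.49 to 0.04, and its relative Lrrk1 at 22.5 CPM in B16F10 and 18.9 CPM in B16F0.

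The 14 Rabs of the endoplasmic reticulum and Golgi summed to 755 CPM in B16F10 and 674 CPM in B16F0. The log2 ratio of the sums was 0.16 (0.15 to 0.18), and 0.07 with TMM factors. Of these 14 Rabs, 6 reached 20 CPM and none passed 1.5-fold. Rab2a had a log2 ratio of 0.36 (0.33 to 0.40). Rab6a, which moves vesicles back through the Golgi, had 120.5 CPM in B16F10 and 97.5 CPM in B16F0, a log2 ratio of 0.31 (0.26 to 0.35). Rab34, a Golgi Rab with a role in cilia, had 115 CPM in B16F10 and 109.6 CPM in B16F0, and Rab18, found on lipid droplets and the endoplasmic reticulum, had 44.4 CPM in B16F10 and 46.0 CPM in B16F0. Rab1b, the close relative of Rab1a, had 32.7 CPM in B16F10 and 34.7 CPM in B16F0. The 8 below 20 CPM ran from Rab6b, at 16.5 CPM in B16F10 and 13.9 CPM in B16F0, down to Rab33a, with 1 UMI in B16F10 and 12 in B16F0. Rab30, a Golgi Rab, was the 1 of these above 1 CPM in both lines that passed 1.5-fold, with 4.67 CPM in B16F10 and 2.77 CPM in B16F0. Rab33b, a Golgi Rab with a role in autophagy, Rab39b, Rab2b, Rab36 and Rab43 lay between 2.52 and 12.6 CPM in B16F10 and between 2.62 and 15.2 CPM in B16F0. Of the Rab43 windows, 70.5% also occur in the gene model Gm45140, so its counts are uncertain.

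Early endosome Rabs, 8 in number, summed to 369 CPM in B16F10 and 333 CPM in B16F0. The log2 ratio of the sums was 0.15 (0.12 to 0.17), and 0.05 with TMM factors. None of the 5 early endosome Rabs at 20 CPM or more passed 1.5-fold. Rab22a, a Rab of early endosomes, had 63.6 CPM in B16F10 and 49.8 CPM in B16F0, a log2 ratio of 0.35 (0.29 to 0.42). Rab21, which takes part in integrin uptake, had 62.3 CPM in B16F10 and 50.5 CPM in B16F0, a log2 ratio of 0.30 (0.24 to 0.37). The Rab5 trio moved less, with Rab5a at 58.7 CPM in B16F10 and 56.5 CPM in B16F0 and Rab5b at 24.8 CPM in B16F10 and 27.8 CPM in B16F0. Below 20 CPM lay Rab31, which serves traffic between the Golgi and endosomes, at 17.6 CPM in B16F10 and 13.7 CPM in B16F0, Rab20 at 5.99 CPM in B16F10 and 4.75 CPM in B16F0, and Rab17 at 1.94 CPM in B16F10 and 1.39 CPM in B16F0.

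Recycling endosome Rabs summed to 429 CPM in B16F10 and 404 CPM in B16F0 over 8 members, a log2 ratio of 0.09 (0.06 to 0.11) that turned to -0.01 with TMM factors. Within the 5 at 20 CPM or more, members lay on both sides of 0. Rab35, which returns cargo from endosomes to the surface, had 27.3 CPM in B16F10 and 21.0 CPM in B16F0, a log2 ratio of 0.38 (0.28 to 0.48), and Rab14 had a log2 ratio of 0.35 (0.32 to 0.38). Rab11a, the main Rab of the recycling endosome, had 97.5 CPM in B16F10 and 122 CPM in B16F0, a log2 ratio of -0.33 (-0.38 to -0.28). Its paralogue Rab11b had 54.2 CPM in B16F10 and 59.2 CPM in B16F0, and Rab4a, a Rab of fast recycling, had 33.4 CPM in B16F10 and 31.1 CPM in B16F0. Rab15, Rab25 and Rab4b each stood under 1 CPM in both lines, and 49.1% of the Rab4b windows also occur in the gene model Gm21983.

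Scaled to the library total, late endosome and lysosome Rabs were the 1 role group with a lower sum in B16F10. Their 7 members summed to 406 CPM in B16F10 and 490 CPM in B16F0. The log2 ratio of the sums was -0.27 (-0.29 to -0.25), and -0.37 with TMM factors. Rab7 and Rab24 hold most of this sum. Rab24, an atypical Rab found on autophagosomes, had 114 CPM in B16F10 and 152 CPM in B16F0, a log2 ratio of -0.41 (-0.46 to -0.37). On the opposite strand at its locus lies Prelid1, which shares 26.8% of the Rab24 windows in antisense and stood at 430.4 CPM in B16F10 and 498 CPM in B16F0. The labels do not say whether the counting used strand, so reads of the pair may not be separable. Rab7 had a log2 ratio of -0.13 (-0.16 to -0.10). Rab12, which sends the transferrin receptor to lysosomes, had 35.9 CPM in B16F10 and 32.1 CPM in B16F0, a log2 ratio of 0.16 (0.08 to 0.24). Rab9, of the route between late endosomes and the Golgi, had 15.9 CPM in B16F10 and 16.8 CPM in B16F0, and Rab7b and Rab9b stood under 1 CPM in both lines.

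The 9 Rabs of secretion and surface delivery summed to 259 CPM in B16F10 and 223 CPM in B16F0. The log2 ratio of the sums was 0.22 (0.19 to 0.25), and 0.12 with TMM factors. Of these 9 Rabs, 3 stood at 20 CPM or more and none of the 3 passed 1.5-fold. Rab10 led with a log2 ratio of 0.33 (0.29 to 0.37). Rab8a, which moves vesicles from the Golgi to the surface, had 38.0 CPM in B16F10 and 39.2 CPM in B16F0, and Rab13, of junctions and surface transport, had 31.7 CPM in B16F10 and 29.9 CPM in B16F0. Rab8b, the paralogue of Rab8a, was below the level minimum at 16.6 CPM in B16F10 and 9.79 CPM in B16F0, a log2 ratio of 0.76 (0.63 to 0.90). The Rab3 proteins of regulated exocytosis were low, with Rab3a at 9.94 CPM in B16F10 and 10.5 CPM in B16F0 and Rab3d at 4.67 CPM in B16F10 and 6.48 CPM in B16F0. Rab3b, Rab37 and Rab26 each stood under 1 CPM in both lines.

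Of the remaining 5, Rab28, linked to cilia and photoreceptors, had 109 CPM in B16F10 and 91.5 CPM in B16F0, a log2 ratio of 0.26 (0.21 to 0.31). Rab23, a negative regulator of Hedgehog signalling in the mouse, had 18.2 CPM in B16F10 and 10.5 CPM in B16F0, a log2 ratio of 0.80 (0.67 to 0.93), also below the level minimum. Rab40c, a Rab that joins ubiquitin ligases, had 9.60 CPM in B16F10 and 9.01 CPM in B16F0. Rab40b had 2 UMIs in B16F10 and 5 in B16F0, and Rab44 had 2 in B16F10 and 7 in B16F0.

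Shares within sets of paralogues do not depend on the library total. The balance moved most in the Rab8 pair, where Rab8b held 30.4% of the UMIs (exact binomial interval 28.8 to 32.1) in B16F10 and 19.98% (18.8 to 21.2) in B16F0. In the Rab3 set, Rab3a held 66.6% (63.3 to 69.8) in B16F10 and 59.6% (57.2 to 62.0) in B16F0. In the Rab11 pair, Rab11a held 64.3% (63.2 to 65.3) in B16F10 and 67.4% (66.7 to 68.1) in B16F0. Of the Rab11b windows, 12.6% are shared in sense with its pseudogene Rab11b-ps2, and the labels do not say how reads that match more than 1 gene were treated. Of the 51 members, 38 share no window from the last 500 bases of their transcripts with another gene. Genes on the opposite strand overlap Rab2b (Tox4), Rab3a (Mpv17l2), Rab6a (Mrpl48) and Rab10 (Rab10os), and their reads may not be separable either. The same holds for Rab7 (Gm5577), Rab15 (Fntb), Rab26 (Rab26os) and Rab40c (Gm26694). Gm5577 stood at only 0.25 CPM in B16F10 and 0.042 CPM in B16F0, and Gm26694 at 0.88 CPM in B16F10 and 0.73 CPM in B16F0. Fntb stood at 7.03 CPM in B16F10 and 5.55 CPM in B16F0, and Rab26os at 7.10 CPM in B16F10 and 8.77 CPM in B16F0. On the same strand as Rab26 lies Traf7, at 38.2 CPM in B16F10 and 33.4 CPM in B16F0. In antisense, other genes share 40.5% of the windows of Rab2b, 21.8% of Rab3b and 15.4% of Rab5a. For Rab33b they share 26.0%, with 3.35% in sense. In the Rab5 set, Rab5c held 61.6% in B16F10 and 60.4% in B16F0, Rab5a 27.0% in B16F10 and 26.5% in B16F0, and Rab5b 11.4% in B16F10 and 13.1% in B16F0. One member dominated the other sets in both lines. Rab1a held 83.2% in B16F10 and 81.9% in B16F0 beside Rab1b, and Rab2a held 97.1% in B16F10 and 96.2% in B16F0 beside Rab2b. Rab4a held 99.0% in B16F10 and 99.1% in B16F0 beside Rab4b, and Rab6a held 87.9% in B16F10 and 87.5% in B16F0 beside Rab6b. Rab22a held 78.3% in B16F10 and 78.4% in B16F0 beside Rab31, and Rab7 held 93.7% in B16F10 and 93.9% in B16F0 beside Rab9.

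Across single cells the median spread of the Rab transcripts lay near that of all genes, which were not matched for level. A thinned cell held a median of 21 of the 51 members in B16F10 and 21 in B16F0, with 54 Rab UMIs in B16F10 and 51 in B16F0. More than 50% of the thinned cells held a UMI of 21 members in B16F10 and of 20 in B16F0. The variance of thinned UMIs over their mean (the Fano factor, 1 for pure counting noise) had a median of 1.08 in B16F10 and 1.09 in B16F0 over 37 members, against 1.11 in B16F10 and 1.09 in B16F0 over all genes. Rab28 had the highest factor of the members in B16F10, at 1.497, and Rab7 in B16F0, at 1.53.

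The authors' table also divides cells into cycling and non-cycling. Cycling cells made up 78.1% of B16F10 and 54.6% of B16F0, and cycling cells were deeper, with a median of 36316 UMIs against 30188.5 in non-cycling cells of B16F10, and 37356 UMIs in cycling against 33745 in non-cycling cells of B16F0. Within B16F10, 24 members reached 20 CPM in the higher class, 0 were at least 1.5-fold higher in cycling cells, beside 13.0% of all 5393 genes, and 1 was at least 1.5-fold lower, beside 3.43%. Within B16F0, none of 24 passed 1.5-fold in either direction, beside 9.35% of all 5048 genes higher and 1.03% lower. The Rab sum was 2375 CPM in cycling and 2278 CPM in non-cycling cells of B16F10, a log2 ratio of 0.06 that turned to -0.050 when mitochondrial and ribosomal protein genes were left out of the total, and 2206 CPM in cycling and 2271 CPM in non-cycling cells of B16F0, a log2 ratio of -0.04.

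The member past 1.5-fold is Rab5b, an early endosome Rab that shares its role with Rab5a and Rab5c. In B16F10 it stood at 21.5 CPM in cycling cells and 38.3 CPM in non-cycling cells, a log2 ratio of -0.84 (-1.003 to -0.67). In B16F0 it stood at 22.9 CPM in cycling cells and 34.1 CPM in non-cycling cells, a log2 ratio of -0.58 (-0.69 to -0.46), just under the limit. The difference between the lines, -0.26, had a counting interval from -0.46 to -0.06. Its paralogue Rab5a lay on the other side, with log2 ratios of 0.25 in B16F10 and 0.32 in B16F0, and Rab5c had 0.20 in B16F10 and 0.01 in B16F0.

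Of 23 members at 20 CPM or more in both lines, 5 were higher in cycling cells in both lines with intervals clear of 0: Rab5a, Rab8a, Rab11b, Rab12 and Rab35. How many of all genes were called alike or opposite in both lines was not counted. In B16F10, the intervals of 2601 of 5393 genes lay above 0 and of 1309 below. In B16F0, those of 2343 of 5048 genes lay above 0 and of 1532 below. The median log2 ratio of all genes was 0.11 in B16F10 and 0.06 in B16F0. Rab12 had the highest ratio in B16F10, with 37.6 CPM in cycling and 28.8 CPM in non-cycling cells, a log2 ratio of 0.38 (0.21 to 0.56), against 0.23 (0.12 to 0.33) in B16F0. Rab8a had 0.34 in B16F10 and 0.19 in B16F0, and Rab35 had 0.31 in B16F10 and 0.27 in B16F0. Rab1a, Rab5b and Rab11a were lower in cycling cells in both lines, with Rab1a at -0.10 in B16F10 and -0.26 in B16F0 and Rab11a at -0.11 in B16F10 and -0.18 in B16F0. Rab14 and Rab7 had opposite signs in the lines. Rab14 stood at 221 CPM in cycling and 195 CPM in non-cycling B16F10 cells, and at 163 CPM in cycling and 177 CPM in non-cycling B16F0 cells. Rab7 stood at 239.5 CPM in cycling and 222 CPM in non-cycling B16F10 cells, and at 255 CPM in cycling and 262 CPM in non-cycling B16F0 cells. These 10 members kept their signs under each scaling tried, and all of these ratios but that of Rab5b in B16F10 are under 1.5-fold. The B16F10 log2 ratio of Rab7, 0.11, fell to 0.0024 when mitochondrial and ribosomal protein genes were left out of the total. Rab29 had a log2 ratio of -0.41 (-0.85 to 0.05) in B16F10, where it was below 20 CPM, and of -0.22 (-0.33 to -0.12) in B16F0.

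**Figure D4:**
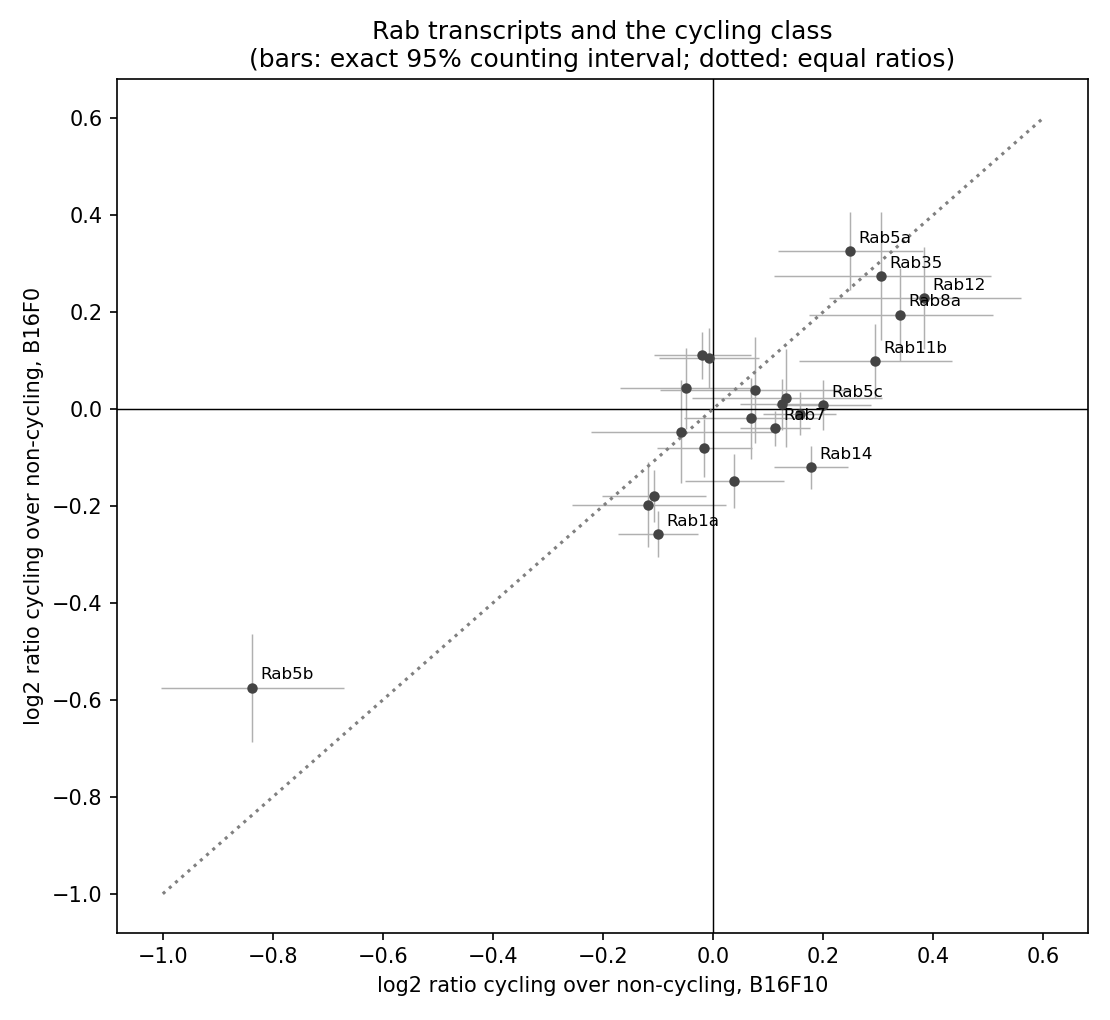
Log2 ratio of cycling over non-cycling cells in B16F10 (horizontal) and B16F0 (vertical) for the 23 Rab transcripts with at least 20 CPM in both lines, with exact 95% counting intervals and a dotted line of equal ratios. Rab5b lies alone at -0.84 in B16F10 and -0.58 in B16F0, and the other members lie within 0.38 of 0 in either line.

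Clusters and trajectory states were made by the authors from transcripts that can include the members, so their values are a description. Rankings and counts over clusters and states cover members that reached 20 CPM in the class or in the rest of its line. Of the members at 20 CPM or more in the whole line, Rab5b had the widest range over clusters in both lines. In B16F10 it stood at 40.2 CPM in cluster C3, 27.3 CPM in C4 and 20.4 CPM in C5. In B16F0 it stood at 26.3 CPM in C1, 20.5 CPM in C2, 39.1 CPM in C3 and 25.6 CPM in C4. C3 is the cluster with the fewest cycling cells in each line, 8.497% in B16F10 and 11.1% in B16F0. Against the rest of its line, C3 had a log2 ratio for Rab5b of 0.90 (0.73 to 1.07) in B16F10 and 0.69 (0.57 to 0.81) in B16F0. Beside it in C3 of B16F10, Rab6b was at 0.42, and Rab12, Rab35 and Rab8a were at -0.49, -0.39 and -0.36. In C3 of B16F0, Rab14 was at 0.35 and Rab6a at 0.33, and Rab12, Rab11b and Rab5a were at -0.35, -0.33 and -0.24.

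Cluster C4 of B16F10, 212 cells that all carry the cycling label, had the most members past 1.5-fold among those at 20 CPM or more in the cluster or the rest. Rab39b, a Golgi Rab known from neurons, had 27.0 CPM there and 10.8 CPM in the rest of the line, a log2 ratio of 1.33 (1.08 to 1.58). Rab28 had 179.8 CPM there and 100.4 CPM in the rest, a log2 ratio of 0.84 (0.75 to 0.93). Rab11a had 64.4 CPM there and 102 CPM in the rest, a log2 ratio of -0.66 (-0.81 to -0.51), with Rab34 at -0.58 and Rab5c at -0.45. C4 of B16F10 was shallow, at a median of 29693 UMIs. It had 8.43% mitochondrial UMIs, the highest of the 3 clusters with at least 50 cells in this line. C3 of B16F10 lay near it, with a median of 30159.5 UMIs and 7.77% mitochondrial UMIs, while C5 had 37725 UMIs and 6.20%. State 7 of B16F10 had a median of 30097 UMIs and 7.80% mitochondrial UMIs. The part of depth or RNA quality in the values of these B16F10 classes was not tested. In C4 of B16F0, where 99.6% of cells carry the cycling label, Rab39b stood at 15.2 CPM, Rab28 at 105 CPM and Rab11a at 106 CPM. In C5, the main cluster of B16F10 with 1045 cells, Rab39b had 8.56 CPM against 22.2 CPM in the rest, a log2 ratio of -1.37 (-1.59 to -1.16). Rab5b there was at -0.78 and Rab28 at -0.52, while Rab14 was at 0.39, Rab12 at 0.38 and Rab5c at 0.38.

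Counted against the rest of its line among members at 20 CPM or more, C3 of B16F10 had 1 of 24 members past 1.5-fold in either direction, beside 19.3% of all genes. C4 of B16F10 had 3 of 25, beside 20.2%, and C5 had 2 of 25, beside 17.4%. In B16F0, C3 had 1 of 24, beside 10.4% of all genes, and C1, C2 and C4 had 0 of 24, beside 7.84%, 10.2% and 9.28%. The highest over the lowest cluster had a median of 1.30 over 23 members in B16F10 and 1.25 over 24 in B16F0. Among the same members, in C1 of B16F0, Rab29, Rab18 and Rab1a were highest at 0.32, 0.26 and 0.19, and Rab28, Rab6a and Rab14 lowest at -0.29, -0.28 and -0.28. In C2 of B16F0, Rab12, Rab35 and Rab1b were at 0.27, 0.24 and 0.22, and Rab5b, Rab14 and Rab34 at -0.56, -0.31 and -0.27. In C4 of B16F0, Rab28, Rab6a and Rab14 were at 0.25, 0.25 and 0.24, and Rab29, Rab1b and Rab11a at -0.43, -0.26 and -0.25.

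Some members below 20 CPM differed more between clusters than those above it, and Rab3a, which acts in regulated exocytosis, is given after its values were seen. In C4 of B16F10 it had 17 UMIs, a level of 2.66 CPM, against 10.9 CPM in the rest of the line, a log2 ratio of -2.03 (-2.82 to -1.34). In C4 of B16F0 it had 96 UMIs, a level of 5.23 CPM, against 11.8 CPM in the rest, a log2 ratio of -1.17 (-1.49 to -0.87). In C1 of B16F0 it had 468 UMIs, a level of 16.2 CPM, against 7.99 CPM in the rest, a log2 ratio of 1.02 (0.83 to 1.198). Rab3a was lower in C4 than in the rest in both lines.

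**Figure D5:**
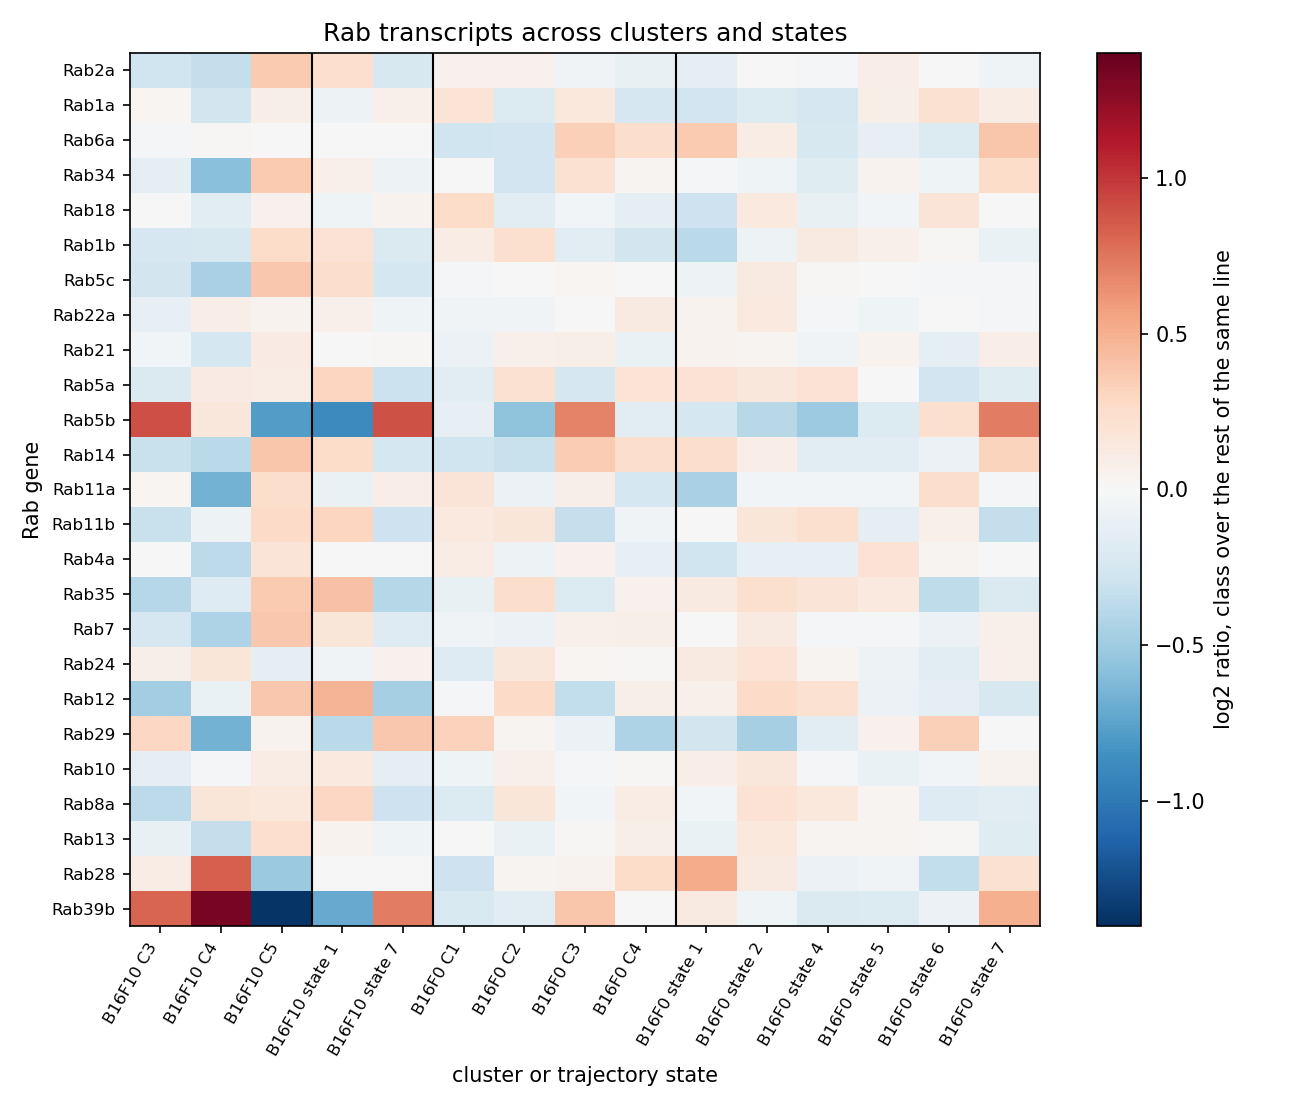
Log2 ratio of each cluster or trajectory state over the rest of the same line, as colour, for the 24 Rab transcripts with at least 20 CPM in the higher line and for Rab39b. The Rab5b row is red in C3 and state 7 of both lines, and Rab39b and Rab28 are red in C4 of B16F10.

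Trajectory states divide the same cells another way, so their Rab5b values are not independent of those over clusters and cycling classes. In B16F10, Rab5b stood at 39.9 CPM in state 7 and 21.5 CPM in state 1. In B16F0 it ran over 23.8 CPM in state 1, 21.7 in state 2, 21.0 in state 4, 25.2 in state 5, 31.4 in state 6 and 41.3 CPM in state 7. State 7 over the rest gave a log2 ratio of 0.90 (0.73 to 1.06) in B16F10 and 0.71 (0.58 to 0.84) in B16F0, and state 7 cells were 5.02% cycling in B16F10 and 4.41% in B16F0. State 6 of B16F0 was also nearly free of cycling cells, at 2.11%, and its Rab5b level lay below that of state 7, with intervals that do not meet. Of members at 20 CPM or more in the state or the rest, Rab5b was the 1 past 1.5-fold in states 1 and 7 of B16F10, each beside 19.0% of all genes, and in state 7 of B16F0, beside 10.5%. No such member passed 1.5-fold in states 1, 2, 4, 5 and 6 of B16F0, beside 12.2%, 7.93%, 6.66%, 0.719% and 9.81% of all genes.

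Other members at 20 CPM or more in the whole line had narrower ranges over the states. Below this level, Rab3a had 15.7 CPM in state 6 of B16F0 against 9.06 CPM in the rest, a log2 ratio of 0.79 (0.59 to 0.98). In state 7 of B16F0, Rab39b had 20.2 CPM against 14.3 CPM in the rest, a log2 ratio of 0.50 (0.31 to 0.68), Rab6a was at 0.39, and Rab11b, Rab12 and Rab35 were at -0.34, -0.22 and -0.20. In state 1 of B16F0, Rab28 had 127 CPM against 88.9 CPM in the rest, a log2 ratio of 0.52 (0.41 to 0.62), with Rab6a at 0.36 and Rab14 at 0.25, and Rab11a, Rab1b and Rab18 at -0.45, -0.37 and -0.29. In state 6 of B16F0, Rab9, Rab29 and Rab11a were highest of those at 20 CPM or more in the state or the rest, at 0.35, 0.33 and 0.24, and Rab35, Rab28 and Rab5a lowest at -0.36, -0.35 and -0.27. In state 2 of B16F0, Rab12, Rab35 and Rab8a were at 0.27, 0.23 and 0.21, and Rab29, Rab5b and Rab1a at -0.46, -0.39 and -0.19. In state 4 of B16F0, Rab11b, Rab12 and Rab5a were at 0.22, 0.21 and 0.21, and Rab5b, Rab1a and Rab6a at -0.51, -0.23 and -0.23. In state 5 of B16F0, members at 20 CPM or more stayed within 0.20 of 0, from Rab5b at -0.19 to Rab4a at 0.20, with Rab14 at -0.16 and Rab11b at -0.14 at the low end and Rab35 at 0.13 and Rab2a at 0.10 at the high end. The 2 states of B16F10 mirror each other, since they hold all but 1 of its cells: in state 7, Rab6b was at 0.43 and Rab11a at 0.10, and Rab12, Rab35 and Rab5a were at -0.47, -0.40 and -0.30.

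The proteins that load, unload and read Rabs were followed in 6 lists between the lines. Of all 5296 genes at 20 CPM or more in the higher line, 10.6% passed 1.5-fold upward in B16F10 and 6.12% downward. Of the prenylation enzymes and chaperones, 8 were measured and 5 reached 20 CPM, with none past 1.5-fold. Rabggtb, a subunit of the Rab prenyl transferase, had 67.8 CPM in B16F10 and 60.5 CPM in B16F0, and Rabac1 had 134 CPM in B16F10 and 147 CPM in B16F0. Of 45 measured exchange factors, 15 reached 20 CPM, of which 2 passed 1.5-fold upward and 1 downward in B16F10. Sbf2, an exchange factor for Rab21 and Rab28 in human cells, had 41.5 CPM in B16F10 and 25.6 CPM in B16F0, a log2 ratio of 0.70 (0.62 to 0.78). Gapvd1, an exchange factor for Rab5, had 61.4 CPM in B16F10 and 39.4 CPM in B16F0, a log2 ratio of 0.64 (0.57 to 0.71). Trappc2l, a subunit of the TRAPP complexes that act on Rab1, had 145 CPM in B16F10 and 226 CPM in B16F0, a log2 ratio of -0.64 (-0.68 to -0.60).

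Of 37 measured activating proteins, 10 reached 20 CPM. At least 1.5-fold higher in B16F10 was 1, beside 10.6% of all genes, and 2 were lower, beside 6.12%. Usp6nl, which in human cells turns Rab5 off, had 632 UMIs and 11.1 CPM in B16F10 and 4517 UMIs and 47.9 CPM in B16F0, a log2 ratio of -2.11 (-2.23 to -1.98). Tbc1d7, a subunit of the TSC complex, had 19.1 CPM in B16F10 and 30.7 CPM in B16F0, a log2 ratio of -0.69 (-0.79 to -0.58). Tbc1d10b, an activating protein for Rab35 in human cells, had 22.9 CPM in B16F10 and 14.9 CPM in B16F0, a log2 ratio of 0.62 (0.51 to 0.73). Of 58 measured effectors, 18 reached 20 CPM, none was 1.5-fold higher and 2 were lower in B16F10, beside the same shares of all genes. Mical3, an effector of Rab6 and Rab8 at the cell cortex, had 30.9 CPM in B16F10 and 59.5 CPM in B16F0, a log2 ratio of -0.94 (-1.02 to -0.87). Plin3, a lipid droplet protein that binds Rab9, had 50.5 CPM in B16F10 and 78.4 CPM in B16F0, a log2 ratio of -0.63 (-0.70 to -0.57). Ankfy1, a Rab5 effector, had 21.2 CPM in B16F10 and 15.8 CPM in B16F0.

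The tethering complexes HOPS and CORVET had 10 measured subunits, of which Vipas39 and Vps8 reached 20 CPM, with log2 ratios of 0.43 and -0.07. Of the 16 Rab-like and Arf family GTPases, 14 reached 20 CPM and none passed 1.5-fold. Arf5, a Golgi GTPase, had 457.5 CPM in B16F10 and 552 CPM in B16F0, a log2 ratio of -0.27, and Arl8a and Arf3 were at 0.25 and 0.24. The median log2 ratios were 0.09 for prenylation and chaperones, -0.01 for exchange factors, 0.14 for activating proteins, 0.16 for effectors, 0.18 for HOPS and CORVET and -0.03 for Rab-like and Arf GTPases, beside 0.12 for all genes.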

How the data were processed

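Libraries of B16F10 and B16F0 cells were made with a 10x Chromium 3′ kit, per the labels' protocols. The submitters' processing notes name mm10, Cell Ranger 3.0.0 and Seurat 3.0. Strand setting, reads that match several genes and cell filters are not stated there. Per the file headers, the authors deposited raw UMI counts of 14959 genes in 4156 cells. The deposited natural log values equalled ln(1 + 10000 × count / cell total) within 5.77e-15 over 200 genes and were not used further. Per the file headers, a cell table deposited by the authors gives classes and scores, without saying how they were derived.

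All deposited cells were kept (at least 3011 genes, at most 19.9% mitochondrial UMIs), no doublet caller was run, and an alternative leaves out the 5% of cells with the most UMIs. Counts were summed per line or class with at least 50 cells and scaled to CPM, with exact 95% Poisson, conditional binomial or Clopper-Pearson intervals. PCR duplicates are collapsed by UMIs, and intervals cover counting error only. Members were counted past 1.5-fold where the higher group reached 20 CPM. Cells are not replicates, so there is no p-value. For shares and Fano factors (mean of at least 0.1), cells were thinned to 23173 UMIs, which left out 158 B16F10 and 388 B16F0 cells. Positions and 98-base windows came from GENCODE M21 and promoters from RefSeq, where 51 and 42 members matched. The windows cover the last 500 bases of each member transcript, and the rest of the transcript was not searched. The members, lists and rule for named genes (the 6 most abundant, those past 1.5-fold, the 3 at either end of each class contrast, the paralogue sets, and the 3 companions furthest from 0 per list) were chosen with earlier results of these data known. Rab8b, Rab23, Rab30, the class values of Rab3a and the neighbours of Rab29 were named after their values were seen. A companion gene that this rule names is not reported here. The ratio step was tested on simulated counts. Alternative scalings used edgeR 4.0.16 (TMM) and DESeq2 1.42.0 (size factors) in R 4.3.3; other steps ran in Python 3.11.15 with pandas 2.3.3, scipy 1.17.1, numpy 2.4.6 and matplotlib 3.10.9.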

Additional observations from a re-analysis of the deposited data

Results flagged for a closer look

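For 2 Rab transcripts scaled to the library total, cycling over non-cycling cells went in opposite directions in the lines, with counting intervals clear of 0. How many of all genes did so was not counted. For Rab14 the log2 ratio was 0.18 in B16F10 and -0.12 in B16F0, a difference of 0.30 (counting interval 0.22 to 0.38). For Rab7 it was 0.11 in B16F10 and -0.04 in B16F0, a difference of 0.15 (0.08 to 0.23). Each line is 1 library, so these differences were not tested against a replicate spread. With a total that leaves out mitochondrial and ribosomal protein genes, the B16F10 ratio of Rab7 was 0.0024, and its interval was not recomputed.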

How the results depend on the processing

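The Rab29 ratio kept its direction under every alternative, at -2.71 in non-cycling cells, -2.62 in C3, -3.16 in C4, -2.61 in state 7, -4.37 in class F0 (2 UMIs in B16F10) and -2.63 in class F10. Its share of cells was 13.3% in B16F10 and 60.5% in B16F0 without thinning. The comparisons within clusters, states and the coarse classes, and the ratio relative to the median gene, were chosen after seeing the data. Members past 1.5-fold higher in B16F10 were 0 in the report, but 4 with no minimum, 2 with 5 CPM, 3 in C4 (Rab23, Rab28 and Rab39b) and 2 in class F0. The members tested were 26 in C4 and 26 in class F0. Of all genes, 982 of 5653 were higher past this limit in C4 and 714 of 5331 in class F0. Members lower were 1 in the report, but 8 with no minimum, 0 with 50 CPM, which leaves out Rab29, and 2 each in C4 (with Rab11a), class F0 (with Rab5a) and class F10 (with Rab39b). Of all genes, 855 of 5653 were lower in C4, 705 of 5331 in class F0 and 383 of 5415 in class F10. The members' median of 0.06 became -0.034 with TMM factors, -0.039 with DESeq2 size factors, -0.011 in C3, 0.17 in state 1, -0.047 in state 7, -0.012 in class F0 and -0.054 relative to the median gene. The Rab sum ratio of 0.08 became -0.020 with TMM factors, -0.026 with DESeq2 size factors, 0.059 with a reduced total (no mitochondrial or ribosomal protein genes), 0.057 as a mean of per-cell CPM, 0.065 in thinned cells, 0.11 in cycling and 0.0042 in non-cycling cells, -0.073 in C3, -0.066 in C4, -0.065 in state 7, -0.061 in class F0, 0.10 in class F10 and -0.041 relative to the median gene. For cycling over non-cycling cells in B16F10, thinning and a minimum of 5 CPM each gave 1 member higher, a minimum of 5 CPM gave 2 lower (Rab5b and Rab39b), and the reduced total gave a sum ratio of -0.050. In B16F0, 1 member, Rab5b, was lower past 1.5-fold with TMM factors, DESeq2 size factors, the reduced total, the mean of per-cell CPM or thinned cells, 1 member, Rab3a, with a minimum of 5 CPM, and the sum ratio became -0.062 with TMM, -0.067 with DESeq2 and -0.10 with the reduced total. That total gave 2 members higher in C3 of B16F10. Exchange factors higher in B16F10 were 1 with TMM factors and 8 with 5 CPM, activating proteins 0 and 2, and effectors 1 with 5 CPM. For counts under other minimums, totals or scalings and in thinned cells, the share of all genes was not counted. Of 196 such values, 140 stayed within 1.5 times or within their counting interval and 56 moved. For ratios of single members, without that of Rab29 between the lines, 415 of 633 values stayed within their counting interval and 218 moved. The causes were not tested. No paired analysis was possible because each line has 1 library. Depth limits members under 1 CPM, where a few UMIs set the ratio.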
